A study of Bos taurus with 30 samples.

Results

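10 genes of the Nodal branch of TGF-beta signalling were followed through the day 15 bovine embryo: the ligands NODAL and GDF3, the coreceptor TDGF1 (named CRIPTO in RefSeq), the secreted antagonists LEFTY2 and CER1, the receptors ACVR2A, ACVR2B and ACVR1B, the proprotein convertase FURIN and the transcription factor FOXH1. They were chosen by name, and each matched 1 Entrez ID, so that 10 of the 35092 rows of the gene count table are described. RNA was sequenced from 30 pieces of 17 embryos. The embryonic disc (ED), which holds the epiblast that will form the fetus, and the extra-embryonic membranes (EEM), which are trophoblast lined by hypoblast, were cut apart from each elongated embryo. In vitro produced (IVP) embryos came from slaughterhouse oocytes that were matured, fertilized and cultured without serum and were transferred to recipient cows at day 7 (7 ED and 6 EEM libraries from 8 embryos). In vivo (IVV) embryos came from superovulated, inseminated cows (9 ED and 8 EEM libraries from 9 embryos). All embryos were flushed from the uterus at day 15, and 13 of them gave both tissues, 5 IVP and 8 IVV. By the paper, fewer cows than embryos served as recipients and as donors, and the semen of a single bull was used. Embryos of a group therefore shared a uterus, and IVV embryos also a dam. The p-values measure the spread between such embryos. Culture, transfer and the hormone treatment of the donors cannot be told apart in the contrast of IVP with IVV. The paper also reports that IVP embryos were shorter than IVV embryos at recovery, and that a disc was found in a smaller share of them. Embryo length is not in the labels, and its part in the differences between procedures was not tested.

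As background, Nodal and GDF3 are secreted as precursors that convertases such as furin cleave. The ligands bind a complex of type II activin receptors (ACVR2A, ACVR2B), the type I receptor ALK4 (encoded by ACVR1B) and an EGF-CFC coreceptor such as Cripto, and the resulting SMAD2 and SMAD3 signal is carried to many of its targets by FOXH1. Lefty proteins and Cerberus (CER1) are secreted inhibitors, and NODAL and LEFTY2 are themselves targets of the pathway in the mouse. In mammalian embryos the pathway is known for its part in epiblast maintenance, in setting the anterior to posterior axis and in the formation of the primitive streak.

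Library totals ran from 48713218 to 63037371 counts, so 3 counts, taken here as the floor of detection, stood for about 0.05 CPM (counts scaled to a library of 1000000). Levels are given as CPM scaled with TMM factors over all 30 libraries. CPM are not divided by gene length, and levels of different genes were therefore not compared. POU5F1 and NANOG, which mark the epiblast, had means of 94.96 and 18.1 CPM in the IVV ED against 1.24 and 0.0561 CPM in the IVV EEM, whereas the marker SOX2 was listed at 0 in all 30 libraries. The SOX2 gene overlaps a long noncoding RNA gene in RefSeq, and the libraries do not keep the strand. The discs also held trophoblast RNA: the summed level of 10 trophoblast markers was 4813 to 31875 CPM in the 16 ED libraries and 7576 to 48089 CPM in the 14 EEM libraries. Of 4 matched markers of the uterus, PAEP and SERPINA14 were at the floor in all groups, and the summed level of all 4 was 5.46 to 24.5 CPM. Of the 2 tested, MUC1 was called higher in IVP discs (log2 fold change 1.10, SE 0.27, adjusted p = 0.016) and OVGP1 was not. Disc VE4 had the lowest POU5F1 (26.9 CPM) and NANOG (3.10 CPM) of the IVV discs, and disc IVP10 the lowest POU5F1 (16.4 CPM) of the IVP discs. They also held the lowest NODAL of their groups. The fits whose calls changed without them, and the main ratios within discs, are given with and without both.

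**Figure D1:**
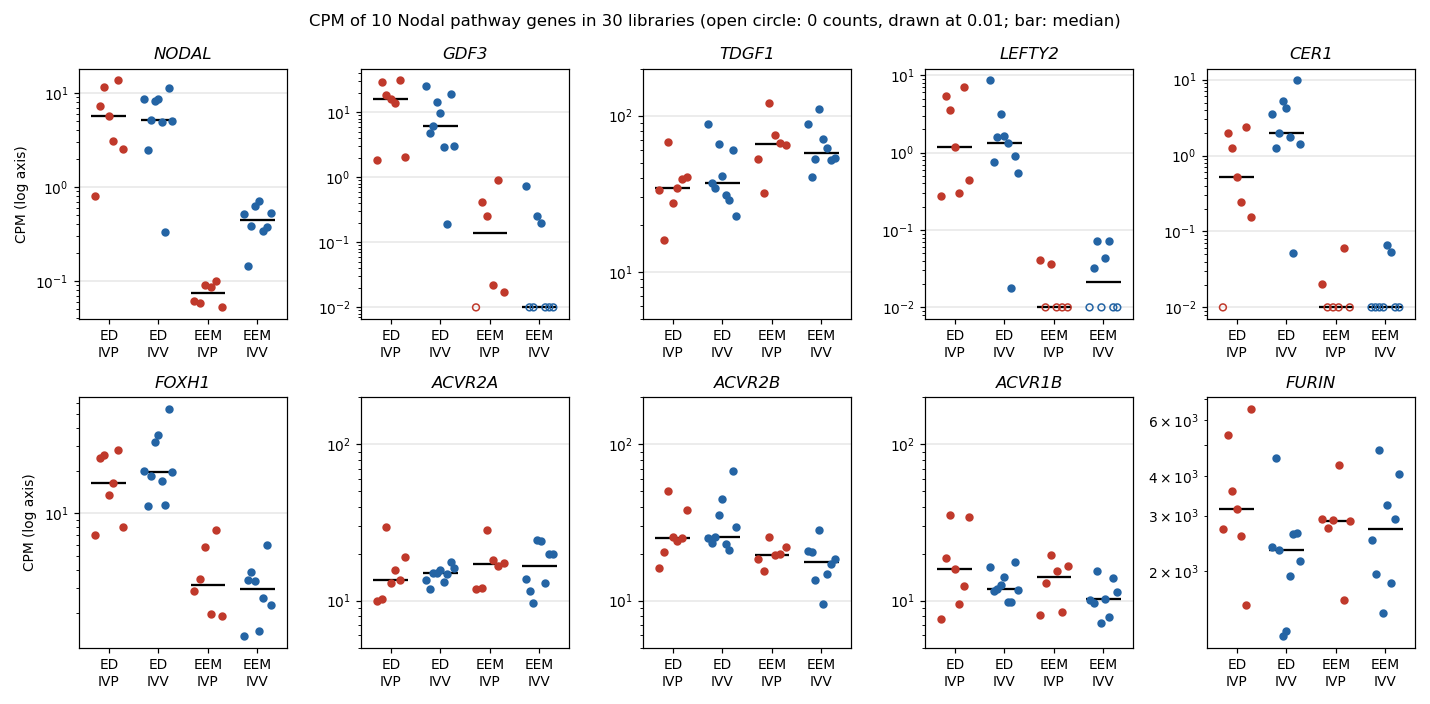
Level of each of the 10 genes in the 30 libraries, as CPM on a log axis, by tissue (ED, EEM) and procedure (IVP red, IVV blue). Points are embryos, bars are medians and open circles are libraries with 0 counts, drawn at 0.01. NODAL, GDF3, LEFTY2, CER1 and FOXH1 were high in the ED, and NODAL in the EEM was split by procedure, with 0.0524 to 0.100 CPM in IVP and 0.145 to 0.705 CPM in IVV embryos.

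The first question was where in the conceptus each gene was expressed. Both ligands, both antagonists and FOXH1 were higher in the ED than in the EEM in embryos of both procedures, the coreceptor TDGF1 was lower in the ED, and ACVR2B was higher in the ED of IVV embryos. Of the 10 members, 7 passed the test in IVV embryos, against 22.1% of all 16784 genes tested, and 6 passed in IVP embryos, against 4.83%. The test was edgeR's quasi-likelihood test with the embryo as a block, Benjamini-Hochberg adjusted over all genes tested, in one fit of the 13 embryos with both tissues. All 10 members passed the filter on low counts in this fit, but LEFTY2 and CER1 did so only through the discs, where they are high. NODAL in the IVP membranes (3 to 5 counts) and GDF3 in 5 of 8 IVV membranes (0 counts) were also under its minimum of 10 counts, so the shares of members called are no support of their own. The remaining members (ACVR2A, ACVR1B and FURIN in both procedures, ACVR2B in IVP embryos) had adjusted p-values from 0.272 to 0.964.

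NODAL, the ligand that gives the pathway its name, had 0.333, 5.15 and 11.4 CPM (lowest, median and highest) in the 9 IVV discs and 0.796, 5.77 and 13.8 CPM in the 7 IVP discs. In the EEM it had 0.145, 0.448 and 0.705 CPM in 8 IVV embryos (9 to 32 counts) and 0.0524, 0.0742 and 0.100 CPM in 6 IVP embryos (3 to 5 counts). The ranges of ED and EEM did not overlap in IVP embryos and overlapped in IVV embryos through the disc of VE4 alone. Fitted within embryos, NODAL was higher in the ED by 3.57 (SE 0.40) on the log2 scale in IVV embryos (adjusted p = 1.5e-06) and by 6.22 (SE 0.62) in IVP embryos (adjusted p = 2.4e-06). The disc was the higher tissue in 7 of 8 IVV and 5 of 5 IVP embryos, with VE4 (0.333 CPM in the disc, 0.375 CPM in the EEM) as the exception.

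GDF3, a Nodal-related ligand of pluripotent cells, spanned 0.193 to 25.2 CPM in the IVV discs (median 6.19) and 1.83 to 31.5 CPM in the IVP discs (median 16.2). In the EEM it was listed at 0 in 5 of 8 IVV and 1 of 6 IVP embryos, and the others reached at most 0.748 CPM (35 counts) and 0.921 CPM (46 counts). GDF3 was thus detected in some membranes and not in others within each procedure. It was higher in the ED by 6.66 (SE 0.53) in IVV and 6.19 (SE 0.60) in IVP embryos on the log2 scale (adjusted p = 2.3e-08 and 1.9e-06), in 8 of 8 and 5 of 5 embryos, and the IVV value was 7.26 without VE19. DESeq2 gave 7.71 and 6.82, and without the embryo block, with all 30 libraries, the IVV value was 6.04.

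The 2 antagonists were nearly silent outside the disc. LEFTY2, a feedback inhibitor of Nodal, had 1 to 431 counts in the IVV discs (0.0175, 1.31 and 8.70 CPM) and 15 to 363 counts in the IVP discs (0.278, 1.17 and 7.00 CPM), but no more than 4 counts in any EEM library. CER1, which binds Nodal outside the cell, had 3 to 645 counts in the IVV discs (0.0526, 2.01 and 9.91 CPM) and 0 to 124 counts in the IVP discs (0, 0.529 and 2.39 CPM), and no more than 3 counts in any EEM library. With so few membrane counts a fitted fold change rests on the prior count, so the ratio of summed counts is given with its exact 95% counting interval, which covers counting error only. LEFTY2 summed to 1001 counts in 8 IVV discs and 12 in their membranes, a CPM ratio of 85.4 (48.7 to 166), and to 857 against 4 counts in 5 IVP embryos, a ratio of 222 (86.4 to 817). For CER1 the sums were 1693 against 6 counts in IVV embryos, a ratio of 289 (132 to 788), and 303 against 4 counts in IVP embryos, a ratio of 78.5 (30.4 to 290). Single embryos moved these ratios by over 1.5 times. For LEFTY2 the IVV ratio was 48.6 without VE19, and the IVP ratio was 129 without IVPF14 and 445 without IVP10. For CER1 the IVV ratio was 179 without VE5, 487 without VE29 and 542 without VE3, and the IVP ratio was 187 without IVPF14. Both genes were called in both procedures, with adjusted p-values from 9.7e-08 to 0.00035. The disc was the higher tissue in every embryo for LEFTY2, and in 12 of 13 for CER1, for which disc IVP10 had 0 counts and its membrane 1.

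FOXH1, the DNA-binding partner of the Nodal SMADs, was present in all 30 libraries. It spanned 11.2 to 54.4 CPM in the IVV discs (median 19.6), 7.04 to 28.05 CPM in the IVP discs (median 16.4), 1.37 to 6.04 CPM in the IVV membranes and 1.89 to 7.69 CPM in the IVP membranes. ED and EEM overlapped only in IVP embryos, through the lowest disc (IVP10) and the highest membrane (IVPF14). The difference was 2.98 (SE 0.36, adjusted p = 4.2e-06) in IVV and 2.20 (SE 0.43, adjusted p = 0.0035) in IVP embryos on the log2 scale, and the disc was higher in 13 of 13 embryos.

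TDGF1 went the other way. This coreceptor had 22.7 to 87.9 CPM in the IVV discs (median 36.8) and 40.5 to 110 CPM in their membranes (median 57.8), and 15.9 to 67.6 CPM in the IVP discs (median 34.6) against 31.8 to 121 CPM in IVP membranes (median 65.6). The ranges overlapped widely, but within embryos the disc was the lower tissue in 7 of 8 IVV and 5 of 5 IVP cases. TDGF1 fell in the ED by 0.49 (SE 0.14, adjusted p = 0.014) in IVV and by 0.91 (SE 0.17, adjusted p = 0.0030) in IVP embryos on the log2 scale. Both calls were lost in a fit of all 30 libraries without the embryo as a block, with adjusted p-values of 0.24 and 0.11 and log2 differences of -0.55 and -0.89. The block and the added libraries were not separated in that fit. The IVV call was also lost without embryo VE3 (adjusted p = 0.052) and without VE4 and IVP10 together (adjusted p = 0.052), among adjusted p-values from 0.0049 to 0.24 over all settings.

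The receptors and the convertase were detected in every library of both tissues. ACVR2B, a type II receptor, was higher in the ED of IVV embryos by 0.84 on the log2 scale (SE 0.21, adjusted p = 0.0076), in 8 of 8 embryos, with 21.0 to 67.4 CPM in the discs and 9.499 to 28.5 CPM in the membranes. In IVP embryos its log2 difference was 0.33 (SE 0.26, adjusted p = 0.58). The difference between procedures in this tissue effect was -0.50 (SE 0.34, adjusted p = 0.71), so ACVR2B was not shown to behave differently in the 2 procedures. ACVR2A ranged from 9.65 to 29.6 CPM and ACVR1B from 7.19 to 35.4 CPM over the 30 libraries. Their tissue differences lay between -0.22 and 0.29 on the log2 scale. FURIN, which is expressed in many tissues, had 1250 to 6507 CPM and took between 0.121% and 0.598% of all counts of a library. Its tissue difference was -0.27 (SE 0.22) in IVV and 0.04 (SE 0.27) in IVP embryos on the log2 scale.

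**Figure D2:**
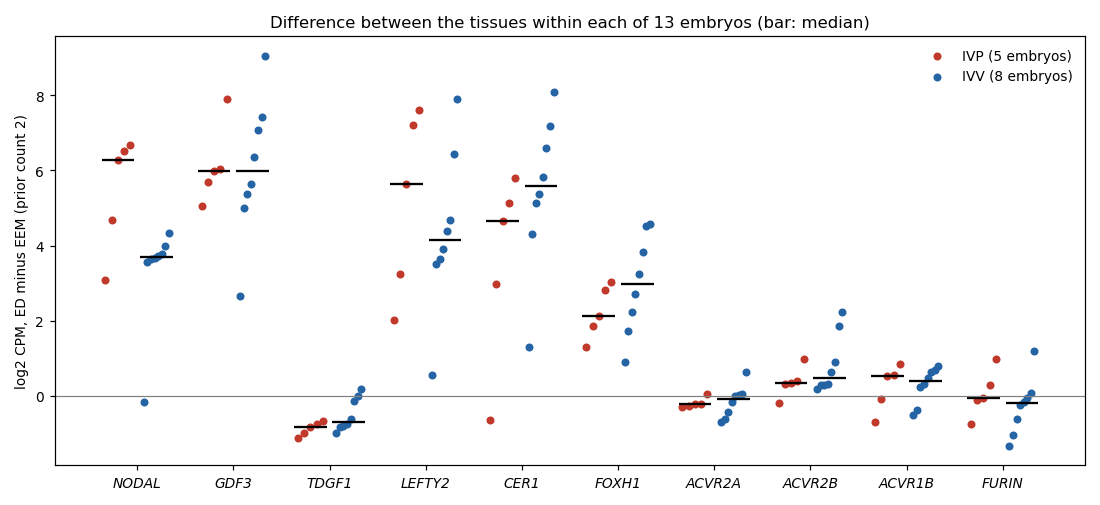
Difference in log2 CPM (prior count 2) between ED and EEM of the same embryo for the 10 genes, with 5 IVP embryos in red, 8 IVV embryos in blue and the median as a bar. NODAL differences lay between 3.09 and 6.66 in the IVP embryos and, except for VE4 at -0.16, close together in the IVV embryos with a median of 3.69, whereas all 5 IVP embryos were below 0 for TDGF1.

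The second question was whether the in vitro procedure altered these genes in the disc. None of the 10 members passed the test in the ED, where 6.34% of the 15733 genes tested did (998 genes by edgeR's quasi-likelihood test, and 2902 at an unadjusted p under 0.05). All 10 had passed the filter on low counts. CER1 and FURIN had unadjusted p-values under 0.05, and DESeq2 called 0 members as well. The median log2 fold change of the members was 0.06, beside -0.01 over all genes tested.

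CER1 came closest to the threshold, with 0.937 ± 0.953 CPM (mean ± SD, n = 7) in discs of IVP embryos, below the 3.26 ± 2.97 CPM (n = 9) of IVV embryos. The ranges overlapped with or without VE4, as IVP11 and IVPF14 (1.99 and 2.39 CPM) lay among the other IVV discs, while 4 of 7 IVP discs and, of the IVV discs, VE4 alone were below 1 CPM. The log2 fold change was -1.91 (SE 0.73, adjusted p = 0.13). Without VE4 it was -2.09 with an adjusted p of 0.044, and without VE4 and IVP10 it was -1.87 with an adjusted p of 0.049, so that this 1 library decided the side of the threshold. Without VE5, which had the highest CER1, it was -1.10 with an adjusted p of 0.45. With the level of XIST, the RNA of the inactive X chromosome, as a covariate it was -3.10 (adjusted p = 0.037). Over 16 omissions of 1 disc the adjusted p ran from 0.044 to 0.45, and over 10 other settings from 0.037 to 0.24. Library titles carry a letter A or C that the labels do not explain. Among discs of letter C the medians of CER1 were 0.529 CPM in 5 IVP and 2.01 CPM in 7 IVV discs, and the letter A was borne by only 2 discs of each procedure, with 0.248 and 2.39 CPM in IVP and 1.74 and 3.51 CPM in IVV.

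NODAL itself had nearly the same mean in both procedures, 6.41 ± 4.83 CPM (SD, n = 7) for the IVP discs and 6.12 ± 3.48 CPM (n = 9) for the IVV discs. Its log2 fold change was 0.11, with a 95% interval of -0.90 to 1.11, so the data leave room for a change of about 1 log2 unit in either direction. Its sign was not stable, as it fell between -0.19 and 0.47 when 1 disc was left out and was -0.50 with XIST as a covariate. GDF3 had a log2 fold change of 0.90 (SE 0.58, adjusted p = 0.47), which turned to -0.22 with XIST as a covariate and was 1.58 without VE5. LEFTY2 had 0.89 (SE 0.63, adjusted p = 0.52), which was 0.25 without IVP11 and 0.28 with no surrogate variable. The value was -0.49 (SE 0.34, adjusted p = 0.50) for FOXH1, or -1.11 with XIST as a covariate, and -0.26 (SE 0.31, adjusted p = 0.76) for TDGF1. Every one of these intervals included 0. FURIN had 3638 ± 1717 CPM (SD, n = 7) in discs from IVP embryos and 2353 ± 967 CPM (n = 9) in those from IVV embryos, a log2 fold change of 0.60 (SE 0.28, adjusted p = 0.25). The receptors ACVR2A, ACVR2B and ACVR1B had log2 fold changes of 0.01, -0.31 and 0.49, with adjusted p-values from 0.41 to 0.99.

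Other genes of the pathway did pass the test in the same discs. Of 44 other genes of the pathway, 41 were matched by name and 39 were tested. No gene of this list rose and 10 fell in the IVP discs, beside 6.34% of all genes called in either direction, with a median log2 fold change of -0.29 beside -0.01 over all genes. The called genes with the smallest p were the mesendoderm regulator MIXL1 (log2 fold change -2.21, SE 0.36), the inhibitory SMAD SMAD7 (-1.33, SE 0.26), the inhibin subunit INHA (-2.12, SE 0.47) and the streak factors TBXT (-3.92, SE 0.90) and EOMES (-1.87, SE 0.43), with adjusted p-values from 0.00047 to 0.0097. By role, 3 of 10 tested target genes, 3 of 5 antagonists, 2 of 11 intracellular transducers or repressors and 2 of 7 ligands fell, and none of the 3 receptors or coreceptors and none of the 3 convertases was called. TBXT, EOMES and MIXL1 are also markers of the primitive streak, of which 6 of 7 tested fell. INHA, GDF1 and TBXT had means of 0.147, 0.202 and 0.550 CPM in the IVP discs. INHA was on average under the filter's minimum there and entered the test through the IVV discs, where it was higher, so these counts of genes that fell are no support of their own. The epiblast marker POU5F1 fell by 1.72 (SE 0.36, adjusted p = 0.0048) on the log2 scale, and NANOG had -1.34 (SE 0.41, adjusted p = 0.052). Of the 6 epiblast markers tested, 2 were called, POU5F1 and PRDM14 (-1.95, adjusted p = 0.0041), while LIN28A (-0.10), DNMT3B (-0.22) and SALL4 (-0.28) had adjusted p-values from 0.50 to 0.90. LIN28A, DNMT3B and SALL4 were less particular to the disc. Their log2 differences between ED and EEM were 0.94, 1.31 and 0.89 in IVV embryos, beside 6.16 for POU5F1. In IVP embryos they were 0.37, 0.84 and 0.21, beside 4.24 for POU5F1. None of the 10 trophoblast and 8 hypoblast markers tested was called. None of the 5 anterior hypoblast markers was called either, but their median log2 fold change was -1.05, all 5 were below 0, and GSC (-1.50, adjusted p = 0.064) and OTX2 (-1.23, adjusted p = 0.099) had the smallest p-values. Their part in the CER1 value was not tested. In a bulk library, fewer epiblast cells and less RNA per cell cannot be told apart.

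**Figure D3:**
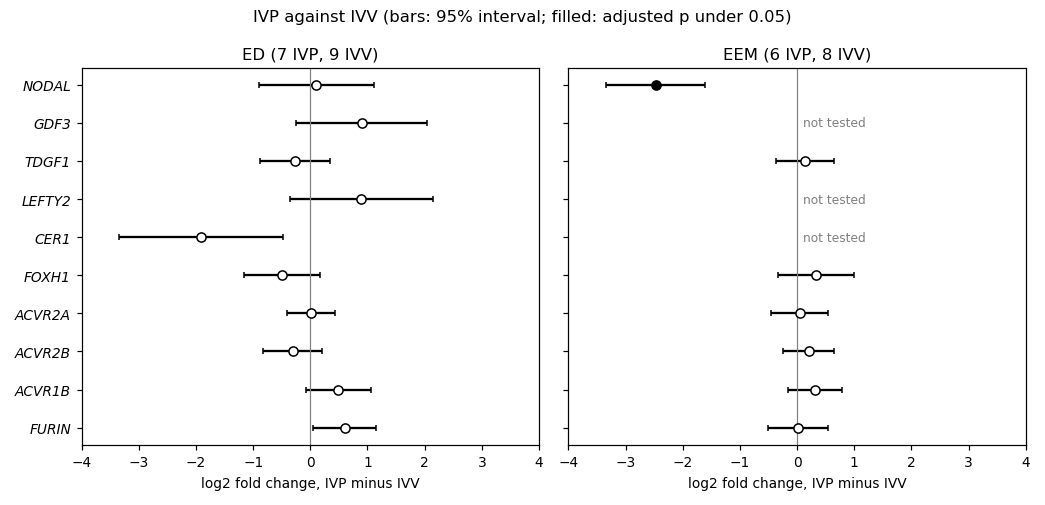
Log2 fold change of IVP against IVV embryos for the 10 genes in the ED (7 against 9 libraries) and the EEM (6 against 8), with bars for the 95% interval. Filled points had an adjusted p under 0.05, which only NODAL in the EEM reached, at -2.48, and 3 genes were under the filter on low counts in the EEM.

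In the membranes the procedure did separate NODAL. Of the 10 members, 7 passed the filter on low counts in the EEM, since GDF3, LEFTY2 and CER1 were too low, and 1 of these 7 was called, where 3.81% of all 14718 genes tested were. NODAL had 0.0751 ± 0.0199 CPM (SD, n = 6) in membranes of IVP embryos, and 0.451 ± 0.178 CPM (n = 8) in those of IVV embryos. These are small counts, 3, 3, 3, 4, 5 and 5 in the IVP libraries and 9, 19, 20, 21, 24, 27, 27 and 32 in the IVV libraries, but the 2 sets did not overlap. Every IVP library was under the filter's minimum of 10 counts, so NODAL entered the test only through the IVV libraries, where it was higher. The count of 1 of 7, the call and its repeats under other settings are therefore no support of their own. NODAL fell in the IVP EEM by 2.48 on the log2 scale (SE 0.45, adjusted p = 0.0011). The summed counts, 179 over 8 IVV and 23 over 6 IVP libraries, gave a CPM ratio of IVV to IVP of 5.75 with an exact 95% counting interval of 3.71 to 9.30. The call held when any 1 library was left out, with log2 fold changes from -2.62 to -2.35 and adjusted p-values from 0.00033 to 0.0065, and in 8 other settings, with adjusted p-values from 5.2e-05 to 0.020. The separation also held within both title letters: 0.0524 to 0.100 CPM in 3 IVP against 0.340 and 0.513 CPM in 2 IVV membranes of letter A, and 0.0589 to 0.0906 CPM in 3 IVP against 0.145 to 0.705 CPM in 6 IVV membranes of letter C. A filter at a mean of 1 CPM left NODAL out of the test.

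Other genes of the disc overlapped between the procedures in the membranes. NANOG had 0 to 3 counts in the IVP and 0 to 10 counts in the IVV membranes, with 0 in 4 of the 8 IVV libraries, and CER1 and LEFTY2 stayed at 4 counts or fewer in all 14. POU5F1 had 0.795 to 2.43 CPM in IVP and 0.419 to 2.24 CPM in IVV membranes (log2 fold change 0.56, SE 0.32, adjusted p = 0.50). Among markers of the hypoblast, which lines the trophoblast in the EEM, TTR was called lower in IVP membranes (adjusted p = 3.2e-05), 1 of 9 tested. It had at most 3 counts in each IVP library and entered the test only through the IVV libraries, so its fitted fold change rests on the prior count and is not given, and the count of 1 of 9 is no support of its own. HHEX, an anterior hypoblast marker and Nodal target, was also called lower (-1.28, SE 0.36, adjusted p = 0.044), 1 of 3 tested. The summed level of 10 hypoblast markers was 1105 to 2148 CPM in IVP and 566 to 2038 CPM in IVV membranes, and none of 10 trophoblast markers was called. Of the 32 other pathway genes tested in the EEM, 0 rose and 2 fell, the ligand TGFB2 (-1.63, SE 0.34, adjusted p = 0.0049) and HHEX. Over all genes tested in the EEM, 3.81% were called in either direction, so counts of 1 or 2 genes in lists this short are no result about the lists. The part of these cell types in the NODAL difference was not tested.

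None of the other 6 tested members was called in the membranes. FOXH1, ACVR1B, ACVR2B, TDGF1, ACVR2A and FURIN had log2 fold changes of 0.33, 0.31, 0.20, 0.14, 0.04 and 0.02, with standard errors from 0.23 to 0.34 and adjusted p-values from 0.71 to 1.00. For FURIN the 95% interval was -0.51 to 0.54. GDF3 had 0 to 46 counts in the IVP and 0 to 35 counts in the IVV membranes. It entered the test without a filter, with a log2 fold change of 3.56 and an adjusted p of 0.024, beside means of 0.271 CPM in IVP and 0.150 CPM in IVV membranes. It also entered when IVP10, IVPF13 or IVPF9 was left out, with adjusted p-values from 0.015 to 0.049. These membranes held 0, 1 and 1 counts of GDF3, so each omission took out a low IVP value. The libraries of GDF3 overlapped between procedures, and 5 of 8 IVV libraries held no count. Its fold change and calls are therefore no support of their own.

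Whether the ED to EEM difference itself depended on the procedure was tested as an interaction in the fit of the 13 embryos. None of the 10 members passed, beside 1.02% of all genes tested (172 genes, and 1727 at an unadjusted p under 0.05). NODAL came closest: its tissue difference was larger in IVP embryos by 2.65 on the log2 scale (SE 0.72, adjusted p = 0.078). It was called by DESeq2 (2.54, adjusted p = 0.018), without a filter (2.69, adjusted p = 0.010), without embryo VE4 (2.27, adjusted p = 0.019) and without VE4 and IVP10 (2.63, adjusted p = 0.0033). Over 13 omissions of 1 embryo the adjusted p ran from 0.019 to 0.24, and over 7 other settings from 0.0033 to 0.14. The 2 tissue contrasts share no embryo, and the NODAL means of the discs were close, so the values that differ most between procedures are those of the membranes. The IVP membranes held only 3 to 5 counts of NODAL, which limits these fitted values. From summed counts, the CPM ratio of ED to EEM for NODAL was 102 in IVP embryos (exact 95% counting interval 66.0 to 168). In IVV embryos it was 17.2 (14.8 to 20.1). The other 9 members had unadjusted p-values of 0.074 or more. Among the other pathway genes 1 of 39 was called, MIXL1 (-2.45, SE 0.44, adjusted p = 0.0074).

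The other pathway genes were also compared between the tissues. In IVV embryos 17 of 39 rose in the ED and 1, TGFB2, was lower, beside 22.1% of all genes called in either direction, and the smallest p-values belonged to EOMES, TBXT, MIXL1, OTX2 and SMAD7. EOMES had a mean of 21.1 CPM and TBXT of 8.19 CPM in the IVV discs, against 0.0131 and 0 CPM in their membranes. In IVP embryos 7 of 39 rose and 0 fell, beside 4.83% of all genes called, though EOMES, TBXT, GSC and INHA had a mean of 0 CPM in the IVP membranes. In both procedures these 4 genes passed the filter only through the discs, where they were high. LHX1, with means of 0.0624 CPM in IVV and 0.0558 CPM in IVP membranes, was also under the filter's minimum there on average. So were GDF1 and INHBA in the IVV membranes (0.137 and 0.138 CPM). Neither count is therefore support of its own. In the IVP embryos EOMES, TBXT, GSC, OTX2 and LHX1 had the smallest p-values. The median log2 difference of the list was 0.48 in IVV and 0.13 in IVP embryos, beside -0.10 and -0.07 over all genes.

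The discs of one procedure differed widely, and the members of the disc moved together across them. Over the 9 IVV discs log2 NODAL followed CER1 with a Pearson r of 0.98 (exact permutation p = 7.4e-05, adjusted p = 0.00074 over 10 relations) and a Spearman rho of 0.93 (exact permutation adjusted p = 0.0037). The relation to LEFTY2 had r = 0.85 (exact permutation adjusted p = 0.020) and rho = 0.63 (exact permutation adjusted p = 0.095). FOXH1 had r = 0.75 (exact permutation adjusted p = 0.021) and rho = 0.95 (exact permutation adjusted p = 0.0035). TDGF1 had r = 0.54 (exact permutation adjusted p = 0.15) and rho = 0.70 (exact permutation adjusted p = 0.062). POU5F1, included as a marker of the epiblast, had r = 0.83 (exact permutation adjusted p = 0.0028) and rho = 0.83 (exact permutation adjusted p = 0.014).

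Over the 7 IVP discs CER1 again had the highest r. NODAL had r = 0.97 with CER1 (exact permutation adjusted p = 0.0040; rho = 0.96), r = 0.91 with FOXH1 (exact permutation adjusted p = 0.0055; rho = 0.96) and r = 0.89 with LEFTY2 (exact permutation adjusted p = 0.011; rho = 0.93). With TDGF1 it was 0.13 (exact permutation adjusted p = 0.80; rho = 0.18). With POU5F1 it was 0.65 (exact permutation adjusted p = 0.14; rho = 0.43), a relation that did not pass the test in the IVP discs, though the difference between the procedures was not tested. Without the 2 discs farthest from the median of NODAL (VE4 and VE5, IVP10 and IVPF14), r with CER1 was 0.89 in IVV and 0.90 in IVP discs, r with FOXH1 was 0.88 and 0.83 and r with LEFTY2 was 0.71 and 0.90. With POU5F1 it was then 0.81 and 0.34. With 7 and 5 discs left, 5 relations no longer passed the threshold: LEFTY2 in both procedures and CER1 and FOXH1 in IVP discs (exact permutation adjusted p = 0.12 for each), and POU5F1 in IVV discs (exact permutation adjusted p = 0.081). The share of disc cells in a library is common to all these values, and its part in the correlations was not tested.

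**Figure D4:**
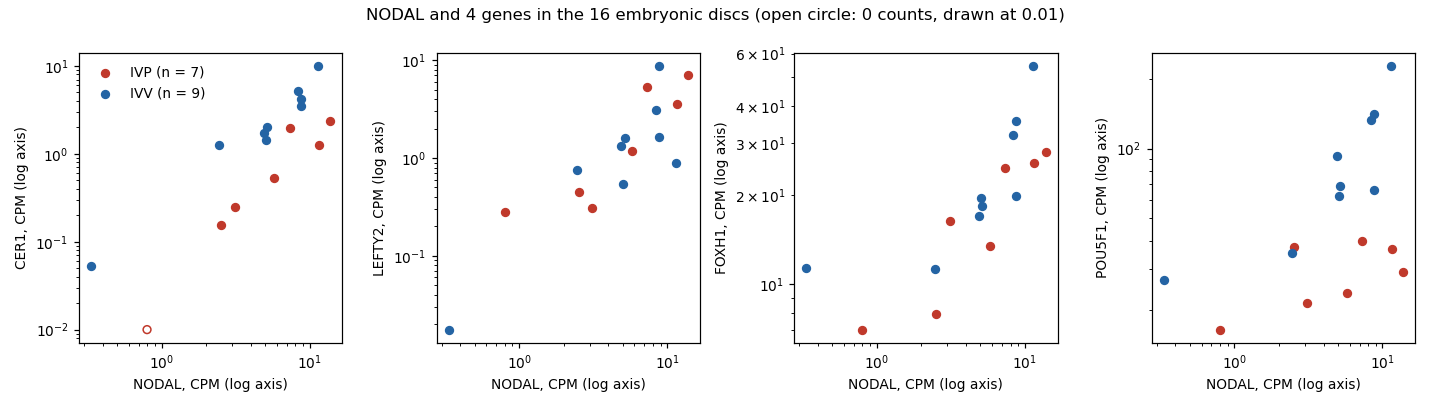
NODAL against CER1, LEFTY2, FOXH1 and POU5F1 in the 16 discs, both as CPM on log axes, with 7 IVP discs in red, 9 IVV discs in blue and an open circle for 0 counts, drawn at 0.01. CER1 rose with NODAL in both procedures (r = 0.98 in IVV, 0.97 in IVP) but lay lower in the IVP discs at a similar NODAL level, and POU5F1 spread from 26.9 to 228 CPM in IVV and from 16.4 to 39.6 CPM in IVP discs.

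As a description with no test, the genes most like each member were sought among 11711 named genes with at least 1 CPM on average in the ED, by Pearson r of log2 CPM centred within each procedure over the 16 discs. For NODAL they were the growth factor gene FGF17 (r = 0.978), CER1 (0.970) and the anterior homeobox gene OTX2 (0.961). CER1 had NODAL, FGF17 (0.954) and OTX2 (0.944), and LEFTY2 had NODAL (0.866), GDF3 (0.857) and CER1 (0.853). For GDF3 they were the amino acid transporter gene SLC7A3 (0.956), CD8B (0.944) and OTX2 (0.931). FOXH1 was most like CA14 (0.958), CNRIP1 (0.942) and SIT1 (0.938). TDGF1 had ADD2 (0.864) and FAM110A (0.821) among its nearest genes, neither of which was among the 3 nearest of another member, and its r with NODAL was 0.369. Of the 3 receptors, ACVR2A and ACVR2B were most alike (0.776), and FURIN had r between -0.421 and 0.419 with the other 9 members.

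POU5F1 was called lower in the IVP discs and no member was, so counts were also set against other genes of the same disc. These ratios were chosen after the values had been seen. POU5F1 and NANOG were taken as references with their lower values in IVP discs known, so a higher ratio to them restates those values, and the ratios to them are given with no test. LIN28A, SALL4 and DNMT3B were not used as references. Per 100 counts of POU5F1, NODAL had 4.84, 18.5 and 47.1 counts (lowest, median and highest) in the IVP and 1.24, 6.24 and 13.1 counts in the IVV discs. The geometric mean of the ratio was 2.84 times the IVV value in IVP discs. It was 5.52 times for GDF3, 3.68 times for LEFTY2 and 2.02 times for FOXH1, and relative to NANOG it was 2.37 times for NODAL, 4.599 times for GDF3 and 1.69 times for FOXH1. Without VE4 and IVP10 the values relative to POU5F1 were 2.87 for NODAL, 5.12 for GDF3, 3.15 for LEFTY2 and 2.23 for FOXH1.

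CER1 was the exception among these genes. Its ratio to POU5F1 in IVP discs was 0.572 of the IVV value and its ratio to NANOG 0.477. Without VE4 and IVP10 they were 0.725 and 0.629, as the disc of IVP10 had 0 counts of CER1 and its ratio was set by the 0.5 added. Set against NODAL, CER1 had 0, 6.16, 7.98, 9.17, 10.7, 17.3 and 27.2 counts per 100 counts of NODAL in the IVP discs. In the IVV discs it had 15.8 (VE4), 28.3, 35.6, 39.0, 40.2, 48.0, 50.7, 62.5 and 87.0 counts. Apart from VE4, every IVV disc lay above every IVP disc. The ratio of CER1 to NODAL was 4.97-fold lower in the IVP discs (two-sided exact permutation p = 0.00017, adjusted p = 0.0024 over 14 ratios), and 3.96-fold lower without VE4 and IVP10 (exact permutation adjusted p = 0.0031). As this ratio too was chosen from these discs, its p describes how far they separated and is not independent support. GDF3, LEFTY2 and FOXH1 relative to NODAL had ratios of 1.94, 1.296 and 0.713 between IVP and IVV discs (exact permutation adjusted p = 0.074, 0.51 and 0.45).

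**Figure D5:**
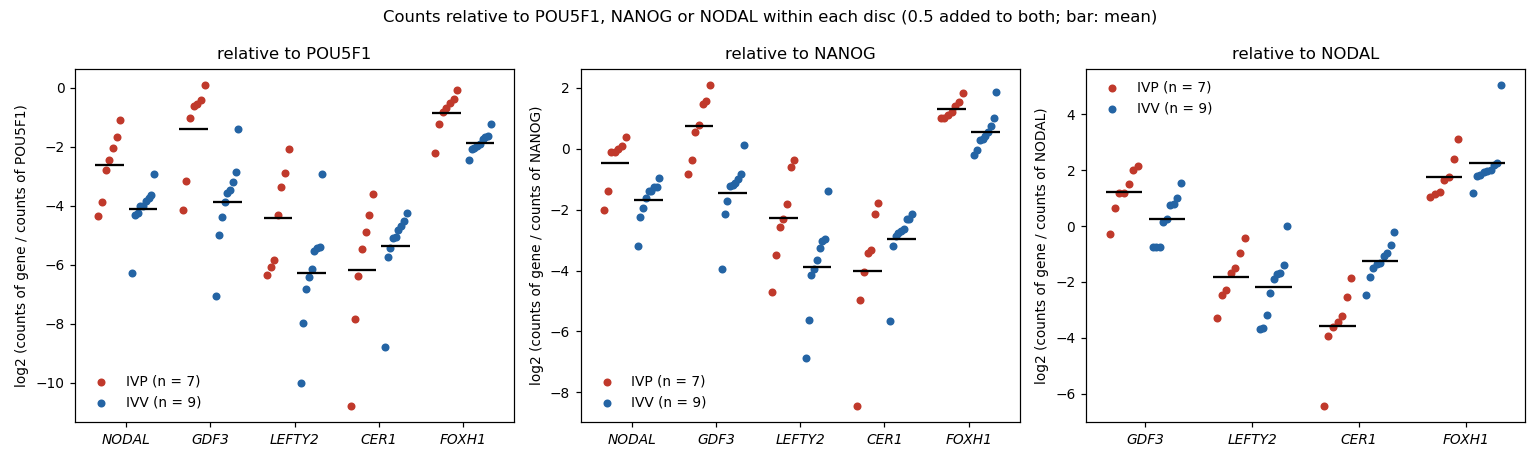
Log2 ratio of the counts of disc members to those of POU5F1, NANOG or NODAL in the same disc (0.5 added to both), with 7 IVP discs in red, 9 IVV discs in blue and the mean as a bar. Relative to POU5F1, which was itself lower in IVP discs, NODAL, GDF3 and FOXH1 had 2.84, 5.52 and 2.02 times the IVV value, and CER1 lay 4.97-fold lower relative to NODAL.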

How the data were processed

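The deposited table held raw counts per Entrez gene, which the authors made from paired-end, non-stranded, polyA-selected reads filtered with SOAPnuke, aligned with STAR 2.7.0b to ARS-UCD1.3 and counted with featureCounts (Subread 2.0.3); FastQC 0.11.9 and Trimmomatic are also named in the submitters' processing notes. All 35092 genes and 30 libraries (48713218 to 63037371 counts) were used. IDs were named from a RefSeq table of ARS-UCD2.0, which matched 31630 IDs holding 99.51% of counts. No member overlapped another gene there. Entries of 2 counts (19289) outnumbered those of 1 (15257), so mates may have been counted separately, and counting intervals may be too narrow.

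Tests used edgeR 4.0.16 (R 4.3.3, limma 3.58.1): TMM, filterByExpr with a minimum count of 10 and the quasi-likelihood test, Benjamini-Hochberg adjusted over all genes tested, called under 0.05. IVP and IVV were compared within each tissue with 1 surrogate variable (sva 3.50.0). ED and EEM were compared with embryo as a block, because the titles tie both pieces to an embryo. Deviations of the tissues of an embryo from their group means correlated at -0.187 to 0.636, highest with the own embryo in 12 of 13. Standard errors were derived from the F statistic. Log2 CPM used a prior count of 2. Exact permutation tests were two-sided. Scripts were tested on simulated data. Alternatives were DESeq2 1.42.0, other size factors, filters and covariates, halved counts, and leaving out libraries.

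The members, the gene lists and the naming rule (all members, at most 5 called pathway genes per comparison by smallest p, and the 3 nearest genes per disc member) were chosen with earlier results of these data known. The ratios within discs, and the fits without VE4 and IVP10, were added after the values were seen. 1 nearest gene is not reported here. No sequence is shown.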

Additional observations from a re-analysis of the deposited data

Results flagged for a closer look

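Of 37 sets of libraries examined (a member in a group with counts above the floor), 3 held 1 library that stood apart by Dixon's test on the log2 scale, and all 3 were the disc of embryo VE4 among the 9 IVV discs. Chance flags about 5% of such sets, and the 3 sets share this library. NODAL was 0.333 CPM in VE4 and 2.46 to 11.4 CPM in the other 8 discs. GDF3 was 0.193 CPM in VE4 and 2.92 to 25.2 CPM in the others. CER1 was 0.0526 CPM in VE4 and 1.24 to 9.91 CPM in the others. LEFTY2, which was not among the 3 flagged sets, had 1 count in VE4 (0.0175 CPM) and 0.548 to 8.70 CPM in the others. In the same library POU5F1 (26.9 CPM) and NANOG (3.10 CPM) were also the lowest of the IVV discs. FOXH1 (11.4 CPM), TDGF1 (28.9 CPM) and the receptors lay within the range of the other discs or just below it. Stage, size and cutting of this disc were not tested.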

How the results depend on the processing

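NODAL in the EEM was called lower in IVP embryos under every alternative in which it was tested. It passed the main filter only through the IVV libraries, and a filter at a mean of 1 CPM left it out, so these repeats are no support of their own. The calls of NODAL, GDF3, LEFTY2, CER1 and FOXH1 between ED and EEM held under all alternatives. Elsewhere the threshold mattered, and the causes were not tested unless fewer genes or samples show them. Without the replicate block (pairing by embryo) and with all 30 libraries in place of 26, 2349 genes were called between tissues in IVV embryos, against 3711, and 301 in the interaction, against 172; the members called, other than TDGF1, were unaltered, and the interactions of ACVR2A and ACVR1B turned to 0.0674 and 0.24. In the ED 1 member, CER1, was called with XIST as a covariate, without VE4, and without VE4 and IVP10. In the EEM 2 members were called without a filter and 0 with a filter at a mean of 1 CPM, which left out NODAL. The added member was GDF3, here and without IVP10, IVPF13 or IVPF9. The main filter had left GDF3 out, so its calls are no support of their own. In the interaction 1 member, NODAL, was called by DESeq2, without a filter, without VE4, and without VE4 and IVP10.

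Signs of values that had not passed the test turned: in the ED NODAL from 0.11 to -0.0696 (2 surrogate variables) and -0.50 (XIST), GDF3 from 0.90 to -0.22 (XIST) and ACVR2A to -0.0274 (mean of 1 CPM) and -0.0043 (title letter), and in the EEM FOXH1 to -0.0408 (2 surrogate variables) and FURIN to -0.0014 (no filter). The mean of ACVR2A in IVV discs was 16.6 CPM on raw totals. Genes called in the ED numbered 1512 by DESeq2, 1846 without a filter, 515 with the 1 CPM filter and 644 with XIST, against 998. In the EEM they numbered 1211, 303 and 158 without a filter, with the 1 CPM filter and with XIST, against 561. With the 1 CPM filter 1896 were called between tissues in IVV and 459 in IVP embryos, against 3711 and 810. The interaction gave 435 by DESeq2, 356 without a filter and 46 with the 1 CPM filter.

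Leaving out 1 library or embryo gave these ranges: 639 (without VE29) to 1160 genes in the ED, 473 (without IVP14) to 851 between tissues in IVP embryos and 101 (without VE29) to 211 in the interaction; 0 to 1 members in the ED, 1 to 2 in the EEM (2 without IVP10, IVPF13 or IVPF9) and 0 to 1 in the interaction. Log2 values ran from -0.19 to 0.47 for NODAL, -0.14 to 0.14 for ACVR2A, 0.38 to 1.58 (without VE5) for GDF3, 0.25 (without IVP11) to 1.25 for LEFTY2 and -2.45 to -1.10 (without VE5) for CER1 in the ED; from -0.15 to 0.16 for ACVR2A, -0.0848 to 0.51 for FOXH1, -0.15 to 0.16 for FURIN and -0.14 to 0.36 for TDGF1 in the EEM; from -0.15 to 0.24 for FURIN between tissues in IVP embryos; and from -0.14 to 0.0387 for ACVR2A, -0.26 to 0.13 for ACVR1B and -1.03 to 0.0687 for GDF3 in the interaction. Without the 2 discs farthest from the NODAL median, 7 or 5 discs remained, and 5 relations missed the threshold: LEFTY2 (0.71) and POU5F1 (0.81) in IVV, and LEFTY2 (0.90), CER1 (0.90) and FOXH1 (0.83) in IVP discs. Counts in the EEM were low for NODAL in IVP embryos (3 to 5) and for LEFTY2 and CER1 in both procedures (at most 4), which limits the precision of their values there.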
